A study of Mus musculus with 20 samples.

Results

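RNA of the T cell receptor complex was followed through dendritic cells sorted from mice as the type 1 conventional subset (cDC1), which is known by its chemokine receptor XCR1. The 10 genes described were Cd3d, Cd3e, Cd3g, Trac, Trbc1, Trbc2, Lck, Lat, Lef1 and Cd8b1, chosen by name with earlier results of these data known. All 10 were found by gene identifier in each of 3 count tables, which list 47729, 54532 and 55487 genes. RNA sequencing covered 20 libraries in 8 groups. In the first table, wild-type C57BL/6 cells sorted as XCR1+CD8a+ cDC1s came from animals on day 15 of TLI/ATS (n = 2), a conditioning in which irradiation of the lymphoid organs is joined to anti-thymocyte serum, and from untreated animals (n = 2). In the second, XCR1+CD8a+ cDC1s of EpoR-tdTomato mice, all on day 15 of TLI/ATS, were split into an EpoR+ (n = 2) and an EpoR- fraction (n = 2). The reporter marks the erythropoietin receptor. In the third, Epor-Xcr1-Cre conditional knockout mice (cKO) were set against Epor flox/flox controls, whose floxed allele the cKO animals share, with n = 3 in each genotype and tissue. The cells were labelled as migratory CCR7+XCR1+SIRPa- cDC1s in peripheral lymph nodes and as CCR7+XCR1+SIRPa- cDC1s in spleen, and the labels of this table name no treatment. In the cKO, Cre is driven from Xcr1, so deletion is aimed at XCR1-bearing cells and not at T cells. Ages, and whether libraries of a group came from separate animals, are not given in the sources used here. All p-values therefore measure only the spread between these libraries, which may be technical.

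The T cell receptor recognises peptide held by MHC molecules through an alpha and a beta chain, and hands the signal to the CD3 chains, whose cytoplasmic motifs are phosphorylated by the kinase LCK. ZAP70 then binds those motifs and phosphorylates the scaffold LAT, from which calcium and kinase signalling start. The genes of the receptor and CD3 chains mark T cells and are not part of the known programme of dendritic cells. LCK, ZAP70 and LAT are not confined to T cells. CD8 is a case apart. Mouse cDC1s of lymphoid organs carry it as a homodimer of CD8 alpha chains. The beta chain encoded by Cd8b1 is known from CD8 T cells. Lymphoid irradiation and anti-thymocyte serum are used together to deplete lymphocytes.

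In the GRCm38 annotation, the 3 CD3 genes lie side by side on chromosome 9. Cd3g (chr9:44969572-44980431, minus strand) and Cd3d (chr9:44981786-44987339, plus strand) start 1355 bases apart and are read away from each other, and Cd3e (chr9:44998740-45009627, minus strand) follows 11401 bases on. Trbc1 (chr6:41538218-41539881) and Trbc2 (chr6:41546730-41548352) are neighbouring constant genes of the beta chain on the plus strand, 6849 bases apart. Trac (chr14:54220521-54224206, plus strand) is the constant gene of the alpha chain. Lck lies at chr4:129548344-129573641 (minus strand), Lat at chr7:126363824-126369570 (minus strand) and Lef1 at chr3:131110471-131224356 (plus strand). Cd8b1 (chr6:71322788-71337494, plus strand) stands 35933 bases from Cd8a. Lef1 shares 13.7% of its exon bases with the antisense gene Gm43352. Reads of the EpoR, spleen and lymph node tables were counted without strand per the file headers, so Lef1 counts are uncertain to that extent. Cd3e, Lck and Lat share at most 3.31% of theirs.

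The 250 bases before the RefSeq start of each CD3 gene are shown because all 3 genes were lower after TLI/ATS and higher in lymph node than in spleen below. They are RefSeq promoters of GRCm38.p6, whose start of Cd3e differs from that of the annotation above, read 5′ to 3′ on the strand of the gene, with capitals at every match to CTTTGA on either strand (the core bound by TCF and LEF proteins, of which Lef1 encodes a member) or to CANNTG (the E-box). The windows are chr9:44980432-44980681 for Cd3g (minus strand), chr9:44981536-44981785 for Cd3d (plus strand) and chr9:45009612-45009861 for Cd3e (minus strand).
Cd3g: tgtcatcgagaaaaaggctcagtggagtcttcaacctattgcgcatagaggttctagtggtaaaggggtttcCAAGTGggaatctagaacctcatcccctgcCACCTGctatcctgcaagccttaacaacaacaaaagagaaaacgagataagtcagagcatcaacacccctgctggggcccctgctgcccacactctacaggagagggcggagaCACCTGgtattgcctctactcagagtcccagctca
Cd3d: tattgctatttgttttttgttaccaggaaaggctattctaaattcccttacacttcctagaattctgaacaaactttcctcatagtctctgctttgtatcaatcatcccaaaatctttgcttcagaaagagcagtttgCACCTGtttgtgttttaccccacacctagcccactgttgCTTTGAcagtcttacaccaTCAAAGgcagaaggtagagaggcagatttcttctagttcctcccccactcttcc
Cd3e: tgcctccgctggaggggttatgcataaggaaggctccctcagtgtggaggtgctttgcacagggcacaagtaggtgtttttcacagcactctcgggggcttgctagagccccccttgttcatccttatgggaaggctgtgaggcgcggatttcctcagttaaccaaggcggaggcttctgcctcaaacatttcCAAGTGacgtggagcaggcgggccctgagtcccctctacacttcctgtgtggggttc
Cd3d held 2 matches to CTTTGA and 1 to CANNTG, Cd3g 3 to CANNTG, and Cd3e 1 to CANNTG. Among 32851 RefSeq promoter windows of the same length, 13.8% held CTTTGA and 66.2% held CANNTG, and no match overlapped another in these 3 windows. RefSeq promoters were matched for 6 of the 10 genes: these 3, Lck, Lat and Lef1. The letters are a description of the windows and were not tested against the values.

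Exon 3 of each of the beta constant genes is shown because reads must tell Trbc1 from Trbc2. Both are coding bases of GRCm38 on the plus strand of chromosome 6, chr6:41539229-41539335 for Trbc1 and chr6:41547772-41547878 for Trbc2, with capitals where the genes differ.
Trbc1: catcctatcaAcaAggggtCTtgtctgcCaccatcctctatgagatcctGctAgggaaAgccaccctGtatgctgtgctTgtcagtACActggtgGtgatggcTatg
Trbc2: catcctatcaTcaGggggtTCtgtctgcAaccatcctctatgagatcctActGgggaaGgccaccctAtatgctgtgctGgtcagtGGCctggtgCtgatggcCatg
These exons agree at 92 of 107 bases. Exon 1 agrees at 374 of 375 bases, and its first 259 bases are identical, so a read that lies wholly within them fits either gene. Counts of Trbc1 and Trbc2 are uncertain for that reason, and multi-mapping reads were left uncounted in the EpoR table and in the spleen and lymph node table per the file headers.

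Libraries held 40583507 to 77570149 counts in the first table, 33660774 to 40127646 in the second and 26618029 to 49700660 in the third. Levels are given in CPM, the count of a gene scaled to the total of its library, and 3 counts, taken as the floor of detection, equal 0.0387 to 0.113 CPM. Epor checked the labels: it had 127 to 236 counts in TLI/ATS libraries and 0 in untreated ones, 525 to 657 in the EpoR+ fraction and 4 to 11 in the EpoR- fraction, 0 in all lymph node cKO libraries and 4 to 28 in lymph node controls. In spleen it had 0 to 2 counts in cKO and 0 to 6 in control libraries, where a loss was not detectable at this depth. The cDC1 marker Xcr1 was detected in every library, at 877 to 1032 CPM in TLI/ATS and 750 to 777 CPM in untreated cells. It stood at 412 to 495 CPM in EpoR+ and 1057 to 1139 CPM in EpoR- cells. In the third table it stood at 20.5 to 36.1 CPM in lymph node and 70.7 to 101 CPM in spleen libraries. Sirpa, which cDC1s lack and macrophages express, stood at 1747 to 1850 CPM in the EpoR+ fraction and 24.6 to 33.1 CPM in the EpoR- fraction. No 2 libraries of a group agreed within sampling noise.

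After TLI/ATS, T cell receptor complex RNA in the cDC1 sort fell for every gene, with log2 fold changes from -6.58 to -4.91. All 10 genes were tested and all 10 were lower in TLI/ATS cells (adjusted p under 0.05 by edgeR's quasi-likelihood test), against 2.2% of all 17236 genes tested in that direction and 2.7% in either direction. Their median log2 fold change was -5.55, and that over all genes was 0.02. None of the 10 overlapped between the groups, and 31.4% of all tested genes were likewise wholly lower. In bulk libraries, fewer T cells in the sort and less RNA per T cell cannot be told apart.

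Among the CD3 chains, which relay the signal, Cd3d had 1.08 and 0.861 CPM in the TLI/ATS libraries, against 54.4 and 53.1 CPM in untreated ones. Its log2 fold change was -5.67 ± 0.23 (SE, n = 2 each, adjusted p = 0.00377 in edgeR's quasi-likelihood test). Cd3g stood at 1.17 and 1.31 CPM after TLI/ATS and at 58.6 and 55.0 CPM in untreated cells, a change of -5.39 ± 0.24 on the log2 scale. For Cd3e the libraries after treatment were less alike, with 134 and 39 counts (1.73 and 0.579 CPM), against 2657 and 2386 counts (57.5 and 58.8 CPM) in untreated ones. The larger spread left Cd3e with the highest adjusted p of the 10 genes (log2 fold change -5.55 ± 0.53, edgeR's quasi-likelihood test, adjusted p = 0.0151).

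The constant genes of the receptor chains followed. Trac had 1.60 and 1.63 CPM after TLI/ATS, against 79.4 and 75.5 CPM in untreated cells (log2 fold change -5.46 ± 0.21). Trbc1 had 0.890 and 1.13 CPM, against 61.1 and 60.0 CPM, and Trbc2 1.83 and 1.71 CPM, against 98.3 and 99.5 CPM. Trbc1 made up 32.7% and 39.8% of the summed Trbc1 and Trbc2 counts after TLI/ATS and 38.4% and 37.6% in untreated libraries. The untreated shares lay within the range of the treated ones.

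Of the signalling genes, Lck, the kinase that starts the cascade, kept the most RNA, with 2.63 and 2.11 CPM after TLI/ATS, against 77.4 and 77.5 CPM in untreated cells. Its log2 fold change of -4.91 ± 0.21 was the smallest of the 10, and that of Lat, the scaffold, was next at -5.09 ± 0.34 (0.722 and 1.05 CPM, against 30.1 and 36.1 CPM). Lef1, a transcription factor of naive T cells, lost the most, with 26 and 25 counts after TLI/ATS, against 1713 and 1488 counts in untreated libraries. Its change was -6.58 ± 0.27 on the log2 scale, an edgeR adjusted p of 0.00377 by Benjamini-Hochberg.

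Cd8b1, the CD8 beta chain, was the most abundant of the 10 by CPM in both groups, with 3.74 and 3.47 CPM after TLI/ATS, against 185 and 183 CPM in untreated cells (log2 fold change -5.55 ± 0.19, edgeR's quasi-likelihood test, adjusted p = 0.00377). Cd8a, which cDC1s express themselves, stood at 786 and 850 CPM after TLI/ATS and 933 CPM in each untreated library. Cd8b1 thus made up 0.474% and 0.407% of the summed Cd8a and Cd8b1 counts after treatment, against 16.5% and 16.4% in untreated libraries. Set against the CD3 genes of its own library, Cd8b1 had 0.939 and 1.26 counts per summed CD3 count after TLI/ATS and 1.08 and 1.10 in untreated libraries, and the groups overlapped. The 95% counting intervals of the treated libraries ran from 0.797 to 1.11 and from 1.04 to 1.54, and are too narrow if the reads of a pair were counted singly, which is not given for this table in the sources used here.

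**Figure D1:**
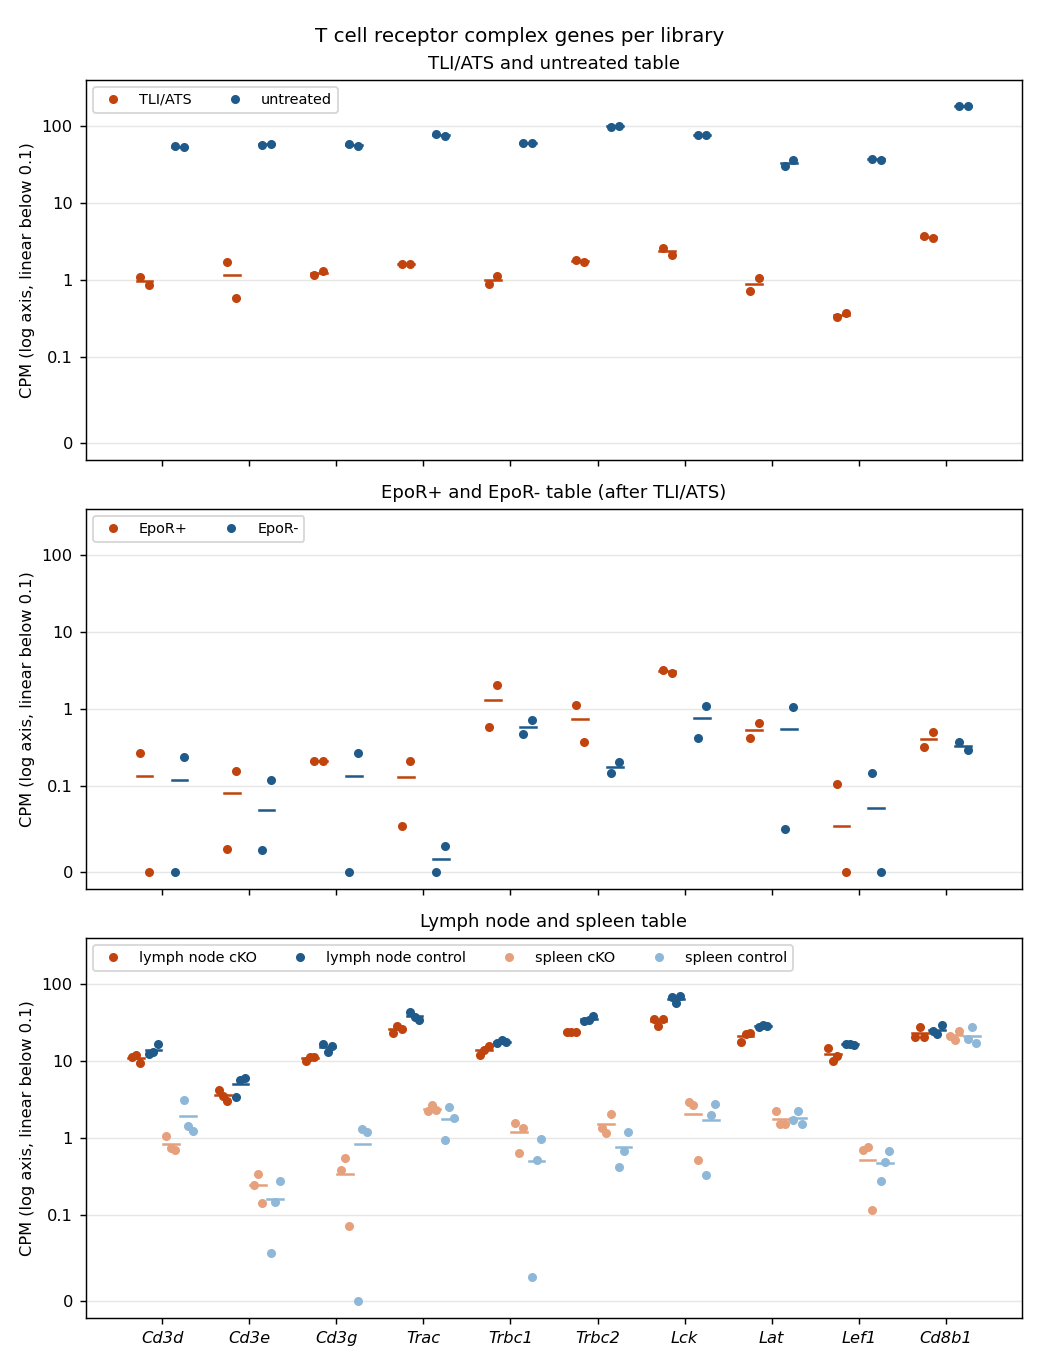
Levels of the 10 genes in every library, in CPM on a log axis that is linear below 0.1, with the mean of each group as a short line and 1 panel per table. TLI/ATS libraries lie far below untreated ones for all 10 genes. In the third panel lymph node libraries lie above spleen libraries for 9 genes, while Cd8b1 lies near 20 CPM in all 4 groups.

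Other T cell genes fell with them. Over all 17236 genes tested, 379 were lower and 86 higher after TLI/ATS. Of 25 further genes of receptor signalling, 14 were lower and 0 higher (median log2 fold change -4.05). Large changes were in Thy1, a surface glycoprotein of T cells (0 and 4 counts after TLI/ATS, 858 summed counts in untreated cells), Themis, needed for T cell development (8 and 0 counts, against 592 summed) and Skap1, an adaptor of integrin activation (log2 fold change -6.23 ± 0.51). Of 17 genes of naive T cells, 14 were lower and 0 higher, led by Dapl1 (-6.86 ± 0.45), Gimap4 (-5.74 ± 0.39), the membrane protein gene Ms4a4b (-5.32 ± 0.34) and S1pr1, the sphingosine phosphate receptor of lymphocyte egress (-5.28 ± 0.53). Markers of other lymphoid cells fell as well: 10 of 12 B cell genes, with a summed level of 77.5 to 100 CPM after TLI/ATS and 727 to 733 CPM in untreated cells, and 7 of 9 genes of plasmacytoid dendritic cells (238 to 239 CPM, against 1117 to 1135 CPM). Of 12 macrophage genes 7 were higher (767 to 1164 CPM, against 146 to 156 CPM). Of 13 cDC1 genes 1 was higher and 0 lower, with a summed level of 11055 to 12718 CPM after treatment and 8805 to 8857 CPM in untreated cells. The part of these other cells in the change of the T cell genes was not tested.

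Variable segments gave a second view of the receptor, because each rearranged transcript carries a V segment. Of 128 alpha V segments in the table, 12 and 11 had at least 1 count in the TLI/ATS libraries, against 89 and 85 in untreated libraries. Their summed counts were 27 and 32 after treatment and 1215 and 971 without it, although the treated libraries were sequenced more deeply. Of 35 beta V segments, 5 and 7 had a count after TLI/ATS and 22 in each untreated library. Trbv13-2, the beta segment with the most counts in this table, had 12 and 8 counts after TLI/ATS, against 220 and 175. Trbv16 had 0 and 3 counts, against 185 and 186, and Trbv12-2 had 0 and 6, against 177 and 167. Among alpha segments, Trav12-2 had 3 and 0 counts, against 38 and 42, Trav14n-3 had 2 and 0, against 52 and 24, and Trav3d-3 had 0 and 4, against 39 and 20. The repertoire seen in untreated libraries was broad, with 52 and 46 alpha V segments at 10 counts or more, and none of the 128 reached 10 counts after TLI/ATS. Segments of a family are near-identical, so single segments are uncertain.

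**Figure D2:**
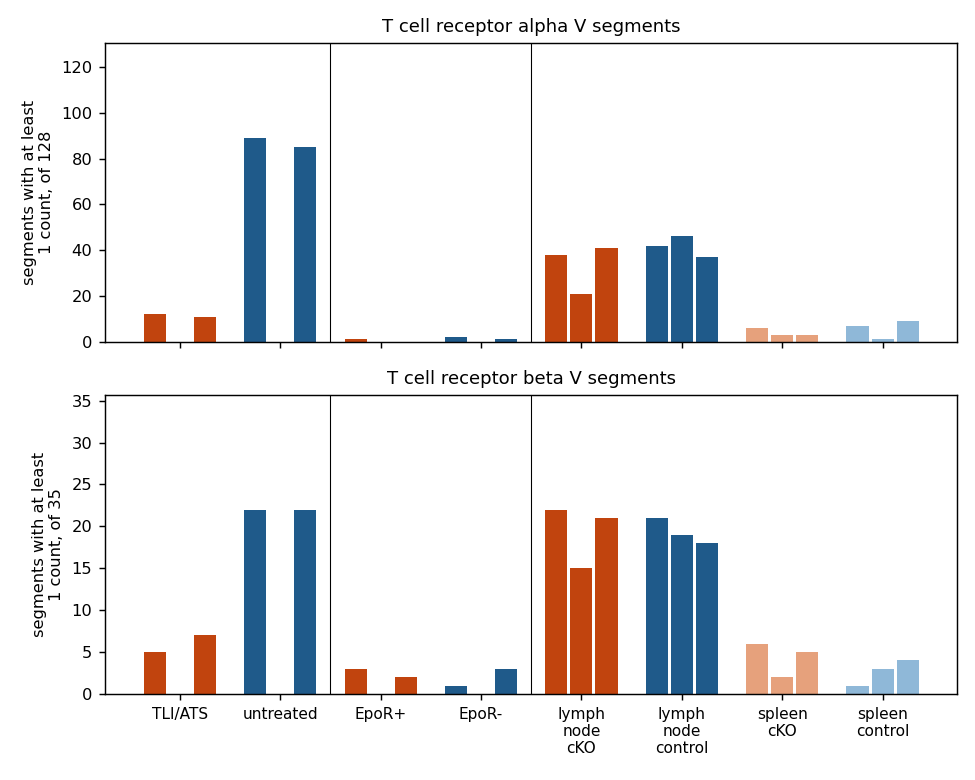
Number of T cell receptor alpha V segments (of 128) and beta V segments (of 35) with at least 1 count, 1 bar per library, with vertical lines between the 3 tables. The untreated libraries show 89 and 85 alpha segments, against 12 and 11 in TLI/ATS libraries. Lymph node libraries show 21 to 46, against 9 or fewer in spleen libraries, and EpoR libraries show 2 or fewer. The tables were counted apart and differ in depth, so bars are compared within a table only.

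When cDC1s taken after TLI/ATS were split by EpoR, most genes of the complex had few counts in both fractions. Summed over the 9 genes other than Cd8b1, RNA stood at 6.05 and 6.62 CPM in EpoR+ libraries and 1.27 and 3.74 CPM in EpoR- libraries. Cd3d, Cd3e, Cd3g, Trac and Lef1 had at most 10 counts in any of the 4 libraries and were removed by the filter on low counts. The other 5 genes were tested and 0 were called by edgeR's quasi-likelihood test, against 16.7% of all 15627 genes tested. At an unadjusted p under 0.05 there was 1, Lck, and DESeq2 called 1, again Lck.

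Lck had 121 and 112 counts in EpoR+ libraries, against 17 and 37 counts in EpoR- libraries, or 3.10 ± 0.203 CPM and 0.761 ± 0.478 CPM (SD, n = 2 each). The groups did not overlap, as was the case with 33% of all genes tested in this direction, and the log2 fold change of 2.01 ± 0.59 had an edgeR quasi-likelihood adjusted p of 0.0787. That call turned on the processing: 5 of 11 alternatives put Lck past the threshold, with adjusted p from 0.0138 to 0.265 over all of them. Trbc2 had 42 and 14 counts in EpoR+ libraries and 6 and 7 in EpoR- libraries (log2 fold change 2.03 ± 0.92, edgeR adjusted p = 0.215, from 0.0369 to 0.797 over 10 alternatives, 1 of them past the threshold), and Trbc1 had 22 and 78, against 19 and 24. Cd8b1 had 12 and 19 counts in EpoR+ libraries, against 15 and 10, while Cd8a stood at 288 to 321 CPM in EpoR+ cells and 638 to 653 CPM in EpoR- cells.

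Set against the CD3 chains, EpoR+ libraries had 121 and 112 Lck counts beside 19 and 14 summed CD3 counts. EpoR- libraries had 17 and 37 Lck counts beside 1 and 21 CD3 counts, and the ratios of the fractions overlapped. In the first table, which was counted apart, untreated libraries had 3576 and 3144 Lck counts beside 7878 and 6772 CD3 counts. TLI/ATS libraries there had 204 and 142, beside 309 and 185. Over all 15627 genes tested, 1864 were higher and 742 lower in EpoR+ cells, 16.7% in either direction. Of 20 further signalling genes tested 4 were higher and 1 lower in EpoR+ cells. Those higher were Cd4 (52.3 CPM in EpoR+ and 6.80 CPM in EpoR- cells), Fyb (305 and 67.9 CPM), Lcp2 (344 and 136 CPM) and the kinase Fyn (195 and 134 CPM), and Grap2 was lower (51.8 and 88.2 CPM). Of 14 naive T cell genes tested 7 were higher and 1 lower, those higher led by S1pr1 (5.44 and 0.427 CPM), Ms4a4b, Gimap6 and Ms4a6b. Several of these genes are used by myeloid cells too, Lcp2 and Fyb among them. All 12 macrophage genes were higher in the EpoR+ fraction, with a summed level of 17150 to 17238 CPM, against 183 to 203 CPM in the EpoR- fraction. The part of macrophage RNA in these differences was not tested.

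In the third table the complex was a lymph node feature. Of the 10 genes 9 were higher in lymph node than in spleen cells among controls, against 21% of all 17362 genes tested in that direction, and 9 were higher among cKO mice, against 14.1%. The exception was Cd8b1 in both genotypes. Their median log2 fold change was 4.39 in controls and 3.54 in cKO mice, with medians of -0.01 and 0.00 over all genes. The sort labels of the tissues differ in the word migratory, so tissue and the state of the cells cannot be told apart.

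Trbc2, the constant gene of the beta chain, had 33.6, 34.1 and 39.1 CPM in lymph node controls, against 0.421, 0.676 and 1.21 CPM in spleen controls. This was the largest tissue difference of the 10 genes in controls (log2 fold change 5.21 ± 0.34, n = 3 each, adjusted p = 1.52e-08 in edgeR's quasi-likelihood test). In cKO mice Trbc2 had 24.1, 23.7 and 23.7 CPM in lymph node, against 1.35, 1.18 and 2.04 CPM in spleen (3.72 ± 0.31). Trac, its alpha chain counterpart, had 44.0, 37.1 and 34.6 CPM in lymph node controls and 0.953, 2.52 and 1.83 CPM in spleen controls, and in cKO mice 23.6, 28.7 and 26.2 CPM in lymph node and 2.24, 2.70 and 2.30 CPM in spleen.

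Lck was the most abundant of the 10 by CPM in lymph node, with 67.9, 56.3 and 69.9 CPM in lymph node controls, against 0.336, 1.99 and 2.79 CPM in spleen controls (log2 fold change 4.93 ± 0.62). The CD3 chains spanned a wider range of differences. Cd3d had 12.6, 13 and 16.7 CPM in lymph node controls and 3.14, 1.43 and 1.24 CPM in spleen controls, the smallest difference of the 9 genes at 2.57 ± 0.34. Cd3e had 3.46, 5.70 and 6.05 CPM in lymph node and 0.0561, 0.150 and 0.282 CPM in spleen controls (4.61 ± 0.61). Cd3g stood at 16.8, 13.3 and 15.8 CPM in lymph node controls, against 0, 1.31 and 1.21 CPM in spleen controls. Spleen control replicate 1 was the odd library there, with 112 Cd3d counts, 0 Cd3g counts and 2 Cd3e counts. Lat, Lef1 and Trbc1 were higher in lymph node by 3.67 ± 0.24, 4.80 ± 0.50 and 4.80 ± 0.61 on the log2 scale in controls, and none of the 9 genes overlapped between the tissues in either genotype, against 34.7% and 35.2% of all tested genes that were wholly higher in lymph node among controls and cKO mice.

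Cd8b1 parted from the other 9 genes. It had 24.3, 22.6 and 29.3 CPM in lymph node controls, against 19.2, 27.5 and 17.1 CPM in spleen controls, a log2 fold change of -0.03 ± 0.19 (edgeR's quasi-likelihood test, adjusted p = 0.927). In cKO mice it had 20.8, 28.0 and 20.7 CPM in lymph node and 21.0, 18.7 and 25 CPM in spleen (-0.15 ± 0.19, edgeR adjusted p = 0.593). When libraries were scaled to the cDC1 genes instead, Cd8b1 came out higher in lymph node by 0.66 in controls and 0.62 in cKO mice, with edgeR adjusted p of 0.00873 and 0.0128. Over all 14 alternatives its adjusted p ran from 0.00873 to 1 in controls and from 0.0128 to 0.993 in cKO mice. That scaling moved the median of all genes by 0.67 in controls and 0.77 in cKO mice (log2). The 13 cDC1 genes were not level between the tissues. In the main fit 10 of them were lower and 0 higher in lymph node in controls, and 11 lower and 0 higher in cKO mice. Over all 17362 genes tested, 3518 and 2653 were lower.

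Within each library, Cd8b1 had 0.807 to 1.03 counts per summed CD3 count in lymph node cKO and 0.706 to 0.761 in lymph node control libraries. In spleen it had 11.4 to 26.9 in cKO and 6.02 to 9.49 in control libraries. All spleen values lay above all lymph node values. The spleen groups did not overlap in this ratio to the CD3 genes, with cKO above control. Their CD3 counts were 32 to 75 in cKO and 77 to 114 in control libraries, and their Cd8b1 counts 603 to 936 and 605 to 731. Summed counts of Trac, Trbc1 and Trbc2 lay the other way, at 231, 146 and 195 in spleen cKO and 50, 99 and 143 in control libraries. Set against these genes, Cd8b1 overlapped between the spleen groups, so the order depends on the genes chosen. Cd8a had the opposite tissue pattern to the 9 genes, with 148 ± 13.5 CPM in lymph node controls and 947 ± 44.9 CPM in spleen controls (SD, n = 3 each). Cd8b1 therefore made up 13.8% to 15.6% of the summed Cd8a and Cd8b1 counts in lymph node controls and 1.68% to 2.91% in spleen controls.

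**Figure D3:**
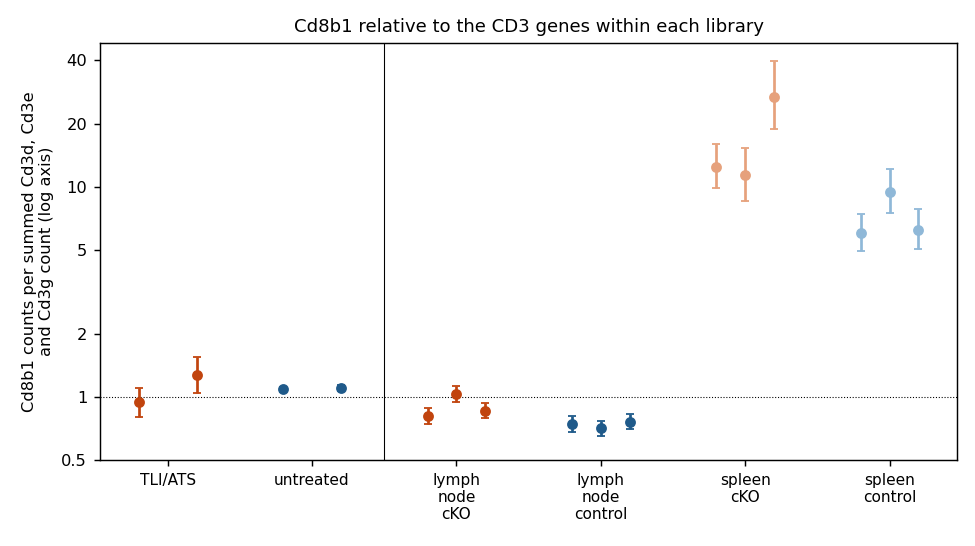
Cd8b1 counts per summed count of Cd3d, Cd3e and Cd3g in each library on a log axis, with 95% exact counting intervals; the vertical line parts the first table from the third, and the dotted line marks a ratio of 1. Lymph node libraries lie between 0.706 and 1.03 and spleen libraries between 6.02 and 26.9.

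Across the 12 libraries of the third table, the log2 level of each gene was set against the mean of the other 9. Pearson's r was 0.933 to 0.993 for 9 genes and 0.410 for Cd8b1. The correlation follows the tissue difference that these libraries share, so it describes the pattern and carries no test. The non-member genes whose levels were most like the mean of the 10, among 10665 genes with a mean of at least 1 CPM, were H2-T22 (r = 0.996), Cd2 (0.996), Cst6, Nphs1, Crispld2 and Txndc9 (0.993 to 0.995). Cd2 encodes an adhesion molecule of T cells, and H2-T22 a non-classical MHC molecule.

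Between lymph node cKO and control cells no gene of the complex passed the test. Summed over the 9 genes other than Cd8b1, lymph node cKO libraries held 153 to 160 CPM and lymph node controls 225 to 245 CPM. Of the 10 genes 0 were called by edgeR's quasi-likelihood test, against 0.455% of all 17362 genes tested, with 1 at an unadjusted p under 0.05 (Trac) and 0 by DESeq2. All 10 log2 fold changes were below 0, with a median of -0.44 against 0.00 over all genes, and 8 of the 10 did not overlap between the genotypes, against 8.85% of all tested genes that were wholly lower. Cd3e and Cd8b1 overlapped. The 10 genes are read from the same cells of the same 6 libraries, so their shared direction is not 10 observations.

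Lck showed the widest gap in lymph node. It had 35.2, 28.3 and 35.4 CPM in cKO libraries, against 67.9, 56.3 and 69.9 CPM in controls, a log2 change of -0.96 ± 0.51 with an adjusted p of 0.756 in edgeR's quasi-likelihood test (n = 3 each). When the lymph node libraries were fitted without the spleen libraries, the same change had an edgeR adjusted p of 0.0153, and over 14 alternatives the adjusted p ran from 0.0153 to 1. Trbc2 had 24.1, 23.7 and 23.7 CPM in cKO and 33.6, 34.1 and 39.1 CPM in control libraries (-0.57 ± 0.27), and Trac changed by -0.55 ± 0.24. Lat had 17.9, 22.7 and 23.2 CPM in cKO and 27.5, 29.8 and 28.7 CPM in control libraries (-0.42 ± 0.21). Lef1 had 14.9, 10.2 and 11.9 CPM, against 16.9, 16.9 and 16.2 CPM (-0.42 ± 0.40). Cd8b1 was nearest to 0 at -0.13 ± 0.19, while Cd8a was called higher in cKO (209 ± 13.9 CPM, against 148 ± 13.5 CPM, SD, n = 3 each). Of 25 further signalling genes and 17 naive T cell genes, edgeR called 0 in lymph node cKO, with 2 and 1 at an unadjusted p under 0.05. Wholly lower were 9 and 8 of them, against 8.85% of all tested genes.

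In spleen the log2 fold changes of the 10 genes lay on both sides of 0. Of 10 tested, 0 were called by edgeR, against 0.611% of all genes, with 2 at an unadjusted p under 0.05 and 1 by DESeq2. Cd3d had 1.05, 0.745 and 0.698 CPM in spleen cKO, against 3.14, 1.43 and 1.24 CPM in spleen controls, and was the only gene of the 10 without overlap, against 5.44% of all genes that were wholly lower. Its log2 fold change was -1.24 ± 0.35 with an edgeR adjusted p of 0.145, and DESeq2 called it at 0.0257, the lowest over 14 alternatives, of which the highest was 0.461. The constant genes lay the other way, with Trbc2 at 1.35, 1.18 and 2.04 CPM in cKO and 0.421, 0.676 and 1.21 CPM in control libraries (0.91 ± 0.33, edgeR adjusted p = 0.257). Without spleen control replicate 3, Trbc2 changed by 1.53 with an edgeR adjusted p of 0.0255, and over the alternatives its adjusted p ran from 0.0255 to 0.648. Among the further signalling genes Sh2d2a, an adaptor that binds LCK, was higher in spleen cKO (115 summed counts, against 6), as was Ms4a4b among naive T cell genes (148, against 22), and 24 of 25 and 16 of 17 were not called.

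Whether the cKO effect differed between the tissues was tested as an interaction, lymph node minus spleen. Of the 10 genes 0 were called by edgeR, against 0.317% of all genes, with 2 at an unadjusted p under 0.05 (Trac and Trbc2) and 1 by DESeq2. Trbc2 had the lowest p, with a difference of -1.48 ± 0.43 on the log2 scale (edgeR's quasi-likelihood test, adjusted p = 0.173). It was called under 3 of 19 alternatives, with adjusted p from 0.0097 to 0.33. One of these left out spleen control replicate 3, and the difference was then -2.09 with an edgeR adjusted p of 0.0172.

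**Figure D4:**
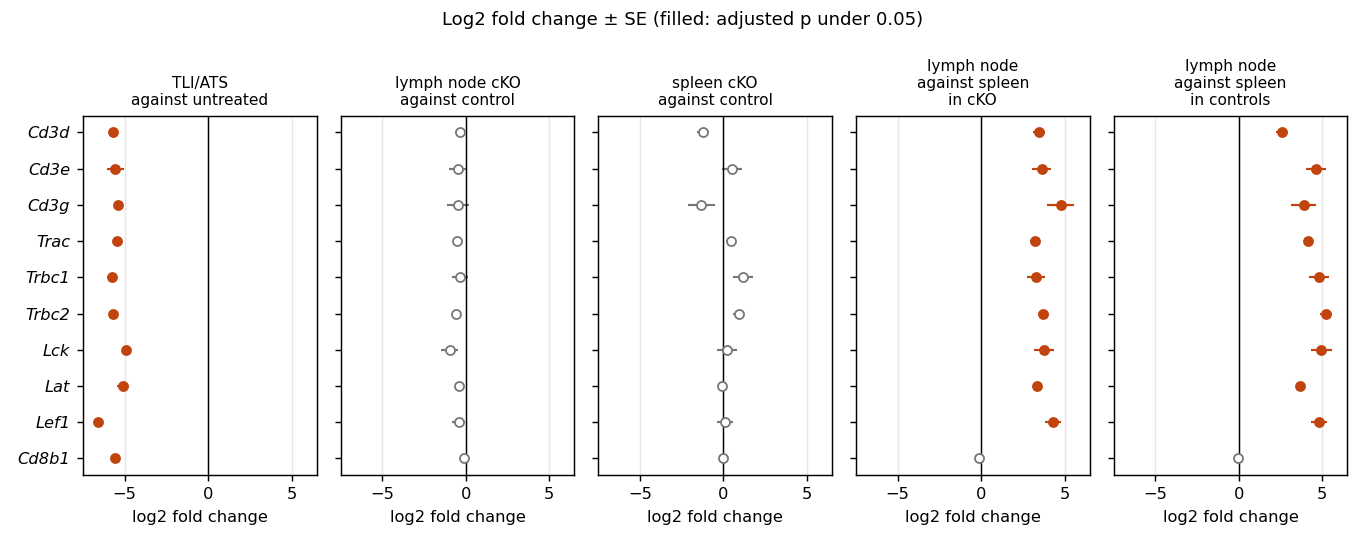
Log2 fold change of each gene in 5 comparisons, with the standard error as a bar. Filled points passed an adjusted p of 0.05 by edgeR's quasi-likelihood test: all 10 after TLI/ATS, 9 of 10 between lymph node and spleen in each genotype, and 0 of 10 for cKO against control in either tissue. Cd8b1 is open in both tissue panels. It was called higher in lymph node when libraries were scaled to the cDC1 genes, most of which were themselves lower there.

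The tissue difference extended to other T cell genes. Of 25 signalling genes 19 were higher and 3 lower in lymph node controls than in spleen controls. In cKO mice 15 were higher and 3 lower, against 2454 and 2653 of all 17362 genes tested. In controls large rises were in Sit1, a transmembrane adaptor of T cells (258 summed counts in lymph node, against 0, at least 70.7-fold higher with 3 counts over the group as the floor), Sh2d2a (1759, against 6) and Prkcq, the protein kinase C of the T cell synapse (log2 fold change 6.25 ± 0.60). Those lower in controls were Ptpn22 (-0.67 ± 0.22), Vav1 (-0.32 ± 0.11) and Fyb (-0.27 ± 0.09), which myeloid cells use as well, and for these the CPM of the tissues overlapped. Of 17 naive T cell genes 15 were higher and 1 lower in controls, led by Ms4a4b (6.02 ± 0.43), Bcl11b, a transcription factor of T cells (5.35 ± 0.72), and Il2rb (5.34 ± 1.01), while Klf2, a transcription factor of quiescent lymphocytes, was lower (-2.00 ± 0.28). Scaling to the cDC1 genes, most of which were themselves lower in lymph node, moved the median of all genes by more than 0.6. The small negative changes of Vav1 and Fyb therefore depend on the scaling. Of 12 B cell genes 1 was higher and 2 were lower in lymph node controls, while 3651 of all 17362 genes tested were higher and 3518 lower. Summed levels of the B cell genes were 12.3 to 18.8 CPM in lymph node and 36.9 to 60.8 CPM in spleen controls. The part of T cells in the sort in these differences was not tested.

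V segments told the same tissues apart. Of 128 alpha V segments, 38, 21 and 41 had a count in lymph node cKO libraries and 42, 46 and 37 in lymph node controls, against 6, 3 and 3 in spleen cKO and 7, 1 and 9 in spleen controls. Beta V segments numbered 22, 15 and 21 of 35 in lymph node cKO and 21, 19 and 18 in lymph node controls, against 2 to 6 in spleen cKO and 1 to 4 in spleen controls. Trbv13-2 had 60, 13 and 32 counts in lymph node cKO and 55, 57 and 54 in lymph node controls, against 0 to 4 in spleen cKO and 0 in spleen controls. Trbv16 had 42, 6 and 29 counts in lymph node cKO and 64, 32 and 36 in lymph node controls, and 0 in all 6 spleen libraries. Trbv1 had 16, 15 and 28 counts in lymph node cKO and 38, 24 and 77 in lymph node controls, against 0, 0 and 3 in spleen cKO and 0, 9 and 2 in spleen controls. Among alpha segments, Trav7-4 had 9, 7 and 40 counts in lymph node cKO and 19, 11 and 13 in lymph node controls, with 0 in spleen cKO and 0 to 4 in spleen controls. Trav14-2 had 6, 14 and 26 in lymph node cKO and 14, 5 and 30 in lymph node controls, and was listed at 0 in spleen. Lymph node cKO replicate 2 was the lowest lymph node library in alpha and beta V segments detected.

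The order of the genes per kilobase of exon is given for each group by itself, with the exon lengths of the third table used for all groups. In untreated cDC1s it ran Trbc2 (143 CPM per kb), Cd8b1 (124), Trac (82.8), Trbc1 (80.8), Cd3d (29.6), Lck (26.4), Cd3g (17.4), Cd3e (14.3), Lat (12) and Lef1 (4.2), and only Trac and Trbc1 overlapped among neighbours. After TLI/ATS the order was Trbc2 (2.56 CPM per kb), Cd8b1 (2.43), Trac (1.73), Trbc1 (1.35), Lck (0.809), Cd3d (0.536), Cd3g (0.379), Lat (0.321), Cd3e (0.283) and Lef1 (0.0402). There Trbc2 and Cd8b1, Cd3g and Lat, and Lat and Cd3e overlapped. In lymph node controls Trbc2 (51.5 CPM per kb) and Trac (41.2) led, followed by Trbc1 (24.1), Lck (22.1), Cd8b1 (17.1), Lat (10.4), Cd3d (7.76), Cd3g (4.68), Lef1 (1.90) and Cd3e (1.24), with Trbc1 and Lck, and Lck and Cd8b1, overlapping. In spleen controls Cd8b1 came first at 14.3 CPM per kb, apart from Trac at 1.89, and the remaining neighbours overlapped.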

How the data were processed

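RNA was sequenced in 20 libraries of sorted mouse cDC1s, and the authors deposited raw read counts per gene as whole numbers with no scaling. The submitters' processing notes name HISAT2, SAMtools, StringTie and featureCounts on GRCm38 for the first table. Per the file headers, featureCounts 2.0.3 made the second table and featureCounts 2.0.8 the third, without strand and with the reads of a pair counted singly. A pair can therefore add 2 counts, and intervals and floors cover counting error only and are too narrow there. Whether pairs were counted singly in the first table is not given in the sources used here.

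Groups came from the sample titles. Each table was fitted apart with edgeR 4.0.16 (R 4.3.3, limma 3.58.1): filterByExpr with a minimum count of 10 and minimum total of 15, TMM scaling, the robust quasi-likelihood test and Benjamini-Hochberg adjustment over every gene tested, calling those below 0.05. All comparisons of lymph node and spleen came from 1 fit over 12 libraries. The fits were tested on simulated data with less spread between libraries than these data have, so that check does not measure their error here. CPM, computed from the counts and the library total, are given as mean ± SD, and log2 fold changes carry their SE. Ratios have exact 95% binomial intervals. Alternatives were DESeq2 1.42.0, other scalings and filters, the replicate block and leaving out each library.

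The 10 genes and the gene lists were chosen with earlier results of these data known. Named beside them were sort genes, in each list up to 4 called genes per direction with the largest change, 3 V segments per chain and table, and the 6 genes most alike. Some genes that this rule would name are not reported here.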

Additional observations from a re-analysis of the deposited data

Results flagged for a closer look

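In 2 genes of the T cell lists the effect of the Epor cKO differed between lymph node and spleen. These were Sh2d2a, 1 of 25 signalling genes, and Ms4a4b, 1 of 17 naive T cell genes, against 0.317% of all 17362 genes tested. For Sh2d2a the difference, lymph node minus spleen, was -4.58 ± 0.83 on the log2 scale (SE, edgeR's quasi-likelihood test, adjusted p = 0.0257). Its counts were 393, 368 and 458 in lymph node cKO, against 655, 533 and 571 in lymph node controls, and 50, 40 and 25 in spleen cKO, against 0, 6 and 0 in spleen controls. For Ms4a4b the difference was -2.69 ± 0.54 (edgeR, adjusted p = 0.0464), with 1.30 ± 0.539 CPM in spleen cKO and 0.238 ± 0.132 CPM in spleen controls (SD, n = 3 each). In 3 further genes all cKO libraries were above their controls in spleen and below them in lymph node, but the test of the difference did not pass: Prkcq at -2.63 ± 0.75 (edgeR adjusted p = 0.167), Cd4 at -1.58 ± 0.47 (0.182) and Lcp2 at -0.99 ± 0.39 (0.311). These 3 were picked from the lists for that pattern, and its share over all genes was not counted. None of the 10 receptor complex genes passed the test of this difference by edgeR, and DESeq2 called Trbc2.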

How the results depend on the processing

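Under every alternative run, TLI/ATS called all 10 genes lower, and lymph node against spleen called the same 9 genes higher in both genotypes, Cd8b1 joining them only with scaling to the cDC1 genes. Leaving out a library of a group of 2 leaves 1 library, which is assumed to vary like the other group, so those fits are weak evidence of stability. Without TLI/ATS replicate 1 or 2, calls over all genes were 4908 and 4679.

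Elsewhere the count of called genes moved from 0. For EpoR+ against EpoR- it was 1 with DESeq2, no filter or the replicate block, 2 with cDC1 scaling and 0 to 1 when a library was left out. It was 1 for spleen cKO with DESeq2 (0 to 1 without a library), 1 for lymph node cKO when only the groups compared were fitted, and 1 for the tissue difference with DESeq2 or no filter (0 to 1 without a library). Cd8b1 turned to 0.66 and 0.62 between tissues with cDC1 scaling, in controls and cKO mice.

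Other changes of sign concerned genes that were not called. Lat in EpoR+ cells came to 0.95 with cDC1 scaling and 0.72 with the replicate block, and Cd8b1 in spleen cKO to 0.0057 with no filter, 0.0029 with the replicate block and 0.0022 when only the groups compared were fitted. Leaving out a library gave -0.98 to 3.34 for Lat, -0.011 to 1.76 for Trbc1 and -0.066 to 0.54 for Cd8b1 in EpoR+ cells. In spleen cKO it gave -0.27 to 0.95 for Lck, -0.22 to 0.57 for Lef1, -0.28 to 0.075 for Lat and -0.11 to 0.20 for Cd8b1, and in controls -0.12 to 0.20 for Cd8b1 between tissues. The causes were not tested.

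Counts over all genes moved more. For TLI/ATS, 465 became 1414 with DESeq2, 1391 with cDC1 scaling, 1264 with the replicate block and 476 to 4908 without a library. For EpoR, 2606 became 9634 with cDC1 scaling, 5347 with the block and 1454 to 2600 without a library. For spleen cKO, 106 became 549 with DESeq2, 436 with no filter, 40 with the block and 31 to 379. For lymph node cKO, 79 became 177 with DESeq2, 170 with no filter, 44 when only the groups compared were fitted and 51 to 72. For the tissue difference, 55 became 426 with DESeq2, 364 with no filter, 34 with the block and 29 to 222. Between tissues in cKO mice, 5107 became 8729 with cDC1 scaling. That scaling moved the median of all genes by -0.52, 1.05, 0.67 and 0.77 for TLI/ATS, EpoR, and lymph node against spleen in controls and cKO mice. The split of higher to lower calls became 78 to 1313 (86 to 379 with TMM), 9628 to 6 (1864 to 742), 7599 to 1443 (3651 to 3518) and 7892 to 837 (2454 to 2653). Of the 13 cDC1 genes themselves, 1 was called higher after TLI/ATS and 12 lower in EpoR+ cells with TMM. In lymph node 10 and 11 were called lower, in controls and cKO mice.

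Deviations of same-numbered libraries correlated with r = -0.07 in the first table, 0.53 in the second and -0.13 to 0.08 in the third, and the labels tie no number to an animal, litter or batch. The second table has only 2 pairs, too few for r to decide, so no numbers were taken as pairs. For Lck, EpoR+ against EpoR-, the replicate block gave a log2 fold change of 2.12 (edgeR adjusted p = 0.0262, from 0.0138 to 0.265 over 11 alternatives). Counts limit precision in the EpoR and spleen libraries, where Cd3e had at most 11.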

Other observations

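Gamma-delta T cells use Trdc and the Tcrg genes for their receptor. After TLI/ATS Trdc had 0 counts in both libraries, against 96 and 62 in untreated ones, at least 87.9-fold lower with 3 counts over the group as the floor. Tcrg-C1 had 0 counts after TLI/ATS and 23 summed counts in untreated libraries, Tcrg-C2 had 0 and 65, and Tcrg-C4 had 18 and 54. Of 4 genes of this list tested after TLI/ATS, edgeR called 1 lower, Trdc. Tcrg-C2 and Tcrg-C4 are given to complete the list. In the EpoR+ fraction Tcrg-C1 had 107 summed counts, against 20 in the EpoR- fraction, a ratio of 5.25 with a counting interval from 3.23 to 8.93, and 0 of the 3 gamma-delta genes tested were called by edgeR, with 1 at an unadjusted p under 0.05. Tcrg-C1 was singled out after its values were seen.

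Dntt, the polymerase that adds bases during receptor assembly and is known from lymphoid progenitors, had 8 summed counts after TLI/ATS, against 1078 in untreated libraries (log2 fold change -7.68 ± 0.89, edgeR adjusted p = 0.0243). It was the 1 gene called of 2 tested in a list of 4 assembly genes. The others had few counts: Ptcra 9 after TLI/ATS and 38 in untreated libraries, Rag2 3 and 2, and Rag1 9 and 0. Of 11 NK cell genes Nkg7 alone was called lower (-4.72 ± 0.23), with 6 at an unadjusted p under 0.05 in edgeR's quasi-likelihood test. The median log2 fold change of the 11 was -1.88. After TLI/ATS 9 of them were wholly lower, against 31.4% of all tested genes. Foxp3, the factor of regulatory T cells, had 49 summed counts after TLI/ATS and 42 in untreated libraries at different depths, a ratio of 0.699 with a counting interval from 0.453 to 1.08, while 0 of 6 regulatory T cell genes were called by edgeR, with 1 at an unadjusted p under 0.05. In cKO mice Foxp3 had 141 summed counts in lymph node, against 0 in spleen, at least 39.9-fold higher on the same floor. In controls it had 107 in lymph node, against 8 in spleen, a ratio of 11 with a counting interval from 5.39 to 26.1. The list as a whole did not move 1 way between the tissues. Of its 6 genes 3 were higher and 1 lower in lymph node in cKO mice, against 2454 and 2653 of all 17362 genes tested. In controls 1 was higher and 1 lower, against 3651 and 3518. How far Foxp3 differed in its response from the 10 genes was not tested.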
